A study of Mus musculus with 10 samples.

Results

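The breakdown of the branched-chain amino acids (leucine, isoleucine and valine) was followed through 10 of its enzymes in subcutaneous fat of old mice. The genes were taken by symbol: Bcat2, Bckdha, Bckdhb, Dbt, Ivd, Mccc1, Mccc2, Aldh6a1, Pcca and Pccb. All 10 were found among the 31285 genes of the deposited table, and all 10 were among the 12785 genes tested, those with at least 1 FPKM (fragments per kilobase of exon, scaled to the library's total of fragments) in at least 5 libraries. RNA was sequenced from inguinal white adipose tissue of mice kept on regular chow to 20 months of age, with 5 libraries of each of 2 genotypes. Flox mice were the comparison genotype, and the second group is given as GHR Knockdown in the sample labels and as Ad-GHRKO in the series, whose title speaks of an adipose-specific loss of GHR, the growth hormone receptor. The Cre driver, the sex of the mice and the number of animals behind each library were not stated in the sources used here. The p-values therefore set the difference between genotypes against the spread between these libraries.

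Ghr, the targeted gene, had mean levels (± SD, n = 5) of 93.5 ± 21.9 FPKM in the Flox and 16.6 ± 2.71 in the Ad-GHRKO libraries, and every Ad-GHRKO library was below every Flox library (limma log2 difference -2.41, SE 0.17, adjusted p = 6.539e-05). Depth recovered from the values was 14.6 to 19.3 M reads (M, mega) per library. Adipocyte markers were present in every library, with none of 18 at 0. Their summed level was 24240 to 38360 FPKM in Flox and 8580 to 19120 in Ad-GHRKO. Of the 18, 2 (Cfd and Adrb3) fell and 0 rose past the test, with a median log2 difference of -0.43. The markers did not share a direction. Mean Lep was 283.3 FPKM in Flox and 768.4 in Ad-GHRKO (log2 difference 1.35, limma adjusted p = 0.115), and mean Fabp4 was 2134 and 2101 FPKM. Reads on 30 skeletal muscle genes made up 18.7% of library Ad-GHRKO 1, 10.7% in Flox 5 and 7.44% in Flox 3, against 0.00697% to 0.245% in the other 7 libraries. B cell, epithelial, macrophage, endothelial and progenitor marker lists had 0 genes past the test, and their summed ranges overlapped between genotypes. Only 5 of 10 B cell and 1 of 10 epithelial markers were tested, against all 8 macrophage, 6 endothelial and 6 progenitor markers. Of 5 brown adipocyte markers 3 were tested and 1 fell, with a median log2 difference of -2.02. Their summed level was 65.0 to 253.1 FPKM in Flox, 261.6 in Ad-GHRKO 1 and 18.8 to 43.6 in Ad-GHRKO 2 to 5. The highest sums, 261.6 and 253.1 FPKM, were in Ad-GHRKO 1 and Flox 5, the libraries with the most muscle reads. The part of muscle in these sums, and of brown adipocytes in the enzyme levels, was not tested.

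Branched-chain amino acids are broken down in mitochondria. An aminotransferase first moves the amino group to a keto acid acceptor, and the branched-chain keto acid dehydrogenase complex (BCKDH) then removes a carboxyl group in the step that commits the carbon to breakdown. The branches part after that: leucine carbon ends as acetyl-CoA and acetoacetate, and carbon of valine and isoleucine passes through propionyl-CoA to the citric acid cycle. White adipocytes are known to use this carbon for lipid synthesis as they differentiate.

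Measured as means, all 10 enzymes were lower in Ad-GHRKO fat, but in none was the difference large enough to pass the test. The Ad-GHRKO mean ran from 57.2% of the Flox mean for Mccc1 to 99.2% for Aldh6a1. The 4 largest differences were in Bcat2 and in the 3 leucine branch genes Ivd, Mccc1 and Mccc2. With limma and Benjamini-Hochberg adjustment over all tested genes at 0.05, 0 of 10 enzymes were called lower, against 1.42% of tested genes, and 0 were called higher, against 0.774%. At an unadjusted p of 0.05, 4 enzymes were lower, against 8.49% of tested genes, and 0 were higher, against 7.86%. No enzyme had all Ad-GHRKO libraries below all Flox libraries, which 3.35% of tested genes did, or all above, which 1.62% did. The median log2 difference was -0.33 over the 10 enzymes and 0.04 over all tested genes. All 10 differences were negative in this fit, but the sign of 6 of them (Bckdha, Bckdhb, Dbt, Aldh6a1, Pcca and Pccb) changed in at least 1 of the alternative fits. Among the other scalings of the libraries 1 sign changed, that of Aldh6a1 (0.08) when each library was rescaled to TPM, and this rescaling moved the median of all tested genes to 0.15 and that of the enzymes to -0.21. Over all tested genes 181 were called lower and 99 higher, and 93 lower and 141 higher after the TPM rescaling. With voom (limma on reads recovered from the FPKM values, chosen after the data were seen) 2 enzymes were called lower, Mccc1 and Mccc2. That fit called more genes in general, 261 lower and 196 higher of 12782 tested.

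**Figure D1:**
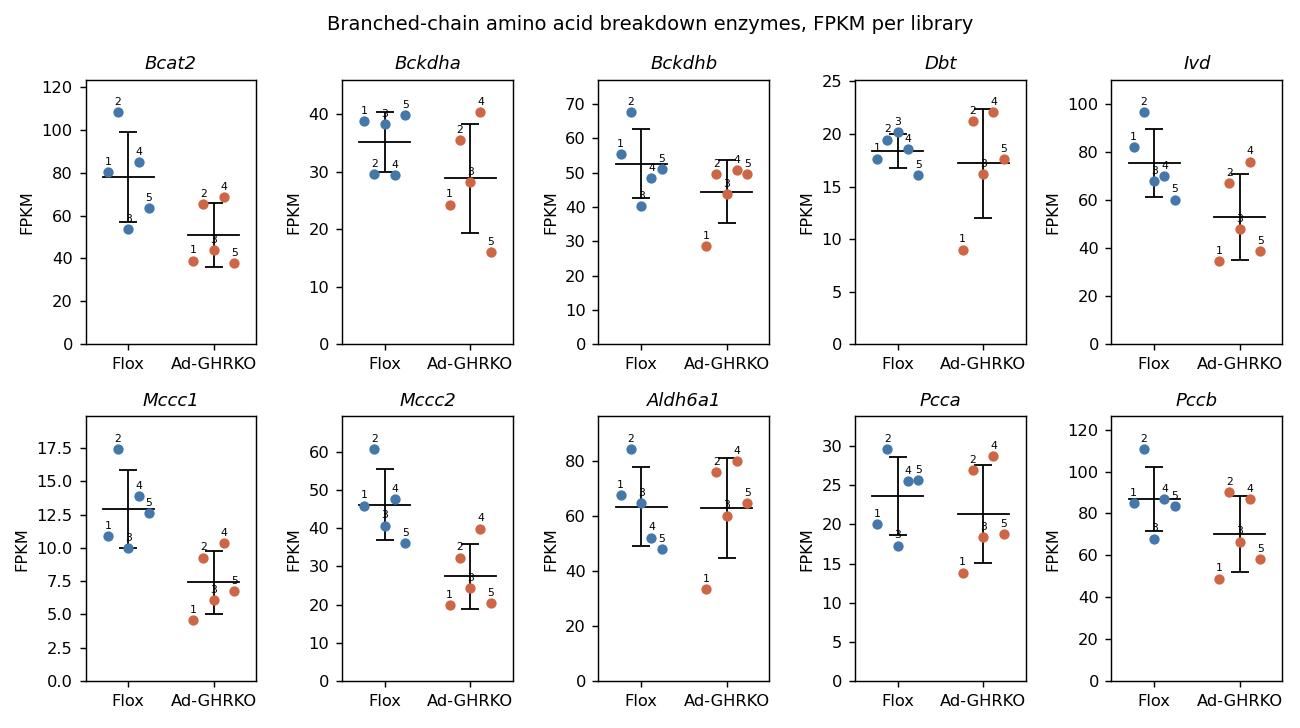
FPKM of each of the 10 enzymes (y axis, from 0) in the 5 Flox and 5 Ad-GHRKO libraries. Points are libraries with their replicate number, horizontal lines are means and bars are 1 SD; the genotypes overlap in every panel, least in Mccc1 and Mccc2, where 4 of 5 Ad-GHRKO libraries lie below the lowest Flox library.

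Bcat2 (ENSMUSG00000030826, GRCm38 chr7:45570153-45589711, plus strand) encodes the mitochondrial aminotransferase that opens the pathway. It stood at 80.1, 108.2, 53.9, 84.8 and 63.3 FPKM in Flox 1 to 5 and at 38.9, 65.5, 44.1, 68.5 and 37.7 FPKM in Ad-GHRKO 1 to 5. Ad-GHRKO 1, 3 and 5 were below every Flox library, and Ad-GHRKO 2 and 4 lay inside the Flox range. The means were 78.1 ± 21 and 50.9 ± 14.9 FPKM (SD, n = 5 each), a limma log2 difference of -0.61 (SE 0.23, 95% interval -1.12 to -0.1, adjusted p = 0.216). Among the 12785 tested genes 3.7% had a lower log2 difference. With a skeletal muscle score as covariate the adjusted p from limma was 0.0428 at a difference of -0.65, and without the 3 muscle-rich libraries it was 0.0881 at -0.78. The antisense gene 0610005C13Rik shares 622 exon bases with Bcat2 but was listed at only 0.189 ± 0.0389 FPKM in Flox and 0.28 ± 0.0894 in Ad-GHRKO; the use of strand in counting is unknown.

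Bcat1, the cytosolic aminotransferase, was far lower, at 1.99 ± 0.644 FPKM in Flox and 2.92 ± 1.57 in Ad-GHRKO, and did not pass the test (log2 difference 0.33, adjusted p = 0.605). The ratio of Bcat2 to Bcat1 within a library was 33.8, 38.6, 40.3, 40.8 and 46.8 in Flox 1 to 5. In Ad-GHRKO 1 to 5 it was 38.4, 21.2, 17.6, 12.8 and 14.2, so that Ad-GHRKO 1 lay among the Flox libraries and the other 4 below them all. On the log2 scale with 1 added to both values the difference was -0.94 with no overlap, at the smallest p the exact permutation test over 252 assignments can give, 0.00794, and 0.0556 after adjustment over 7 ratios. This depended on the added value, because Bcat1 was low. The adjusted permutation p was 0.0556 with 0.5 added, and 0.111 with 0.1 added or with no addition. An antisense gene, Gm26666, shares 337 exon bases with Bcat1.

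In the BCKDH complex no gene differed by more than the spread between libraries. Bckdha (ENSMUSG00000060376, GRCm38 chr7:25629946-25658981, minus strand) and Bckdhb (ENSMUSG00000032263, GRCm38 chr9:83925145-84124240, plus strand) encode the alpha and beta subunits of the decarboxylase, and Dbt (ENSMUSG00000000340, GRCm38 chr3:116513070-116549981, plus strand) the transacylase core. Bckdha was 38.8, 29.6, 38.4, 29.4 and 39.9 FPKM in Flox 1 to 5 and 24.3, 35.5, 28.3, 40.4 and 16.0 FPKM in Ad-GHRKO 1 to 5. Its highest and its lowest library were both Ad-GHRKO, numbers 4 and 5. The means were 35.2 ± 5.24 and 28.9 ± 9.52 FPKM, with a limma log2 difference of -0.33 (SE 0.22, adjusted p = 0.520). B3gnt8, on the opposite strand, shares 1171 of the 1899 exon bases of Bckdha, at 1.05 ± 0.337 FPKM in Flox and 0.718 ± 0.293 in Ad-GHRKO.

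Bckdhb was 55.4, 67.6, 40.4, 48.4 and 51.1 FPKM in Flox 1 to 5 and 28.7, 49.6, 43.9, 50.7 and 49.7 FPKM in Ad-GHRKO 1 to 5. Only Ad-GHRKO 1 was below the Flox range, and the difference was -0.25 on the log2 scale (SE 0.19, 95% interval -0.66 to 0.17, limma adjusted p = 0.575). Dbt varied little among Flox libraries, from 16.1 to 20.2 FPKM, and more among Ad-GHRKO libraries, at 9.01, 21.2, 16.2, 22.1 and 17.6 FPKM. Ad-GHRKO 2 and 4 were above every Flox library and Ad-GHRKO 1 far below. The means were 18.4 ± 1.59 and 17.2 ± 5.20 FPKM (log2 difference -0.14, SE 0.21, limma adjusted p = 0.790). Without Ad-GHRKO 1 the log2 difference of Dbt was 0.06.

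The 3 other genes of the complex and its control, all outside the 10 enzymes, also failed the test. Dld, the dehydrogenase subunit shared with other complexes, had a log2 difference of -0.14 (limma adjusted p = 0.698). Bckdk, the kinase that switches the complex off, was 32.3 ± 4.60 FPKM in Flox and 24.3 ± 8.88 in Ad-GHRKO, and Ppm1k, the phosphatase that switches it on, 2.03 ± 0.281 and 1.55 ± 0.302 FPKM. The Bckdk to Ppm1k ratio ranged from 13.1 to 25.2 in Flox and from 10.3 to 31.7 in Ad-GHRKO (log2 difference -0.2, exact permutation p = 0.444).

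The leucine branch held the lowest members. Ivd (ENSMUSG00000027332, GRCm38 chr2:118861954-118882909, plus strand) encodes isovaleryl-CoA dehydrogenase. Mccc1 (ENSMUSG00000027709, GRCm38 chr3:35959312-36000678, minus strand) encodes the biotin-carrying subunit of methylcrotonyl-CoA carboxylase, and Mccc2 (ENSMUSG00000021646, GRCm38 chr13:99948530-100015639, minus strand) the subunit that transfers the carboxyl group. Promoter sequences are shown for these 3 genes, because their log2 differences were the lowest together with that of Bcat2. They are also shown for Aldh6a1 of the valine branch, whose mean was nearly equal in both genotypes. They are RefSeq sequences of GRCm38.p6, 5′ to 3′ on the gene's strand, from 250 bases before to 50 bases after the start: chr2:118861744-118862043 for Ivd, chr3:36000629-36000928 for Mccc1, chr13:100015590-100015889 for Mccc2 and chr12:84450975-84451274 for Aldh6a1. Capitals mark matches on either strand to CCAAT, the letters of the NF-Y box (ATTGG where the match is on the other strand), and in Mccc1 also to GGGCGG, the GC box of SP1 (CCGCCC on the other strand).
Ivd: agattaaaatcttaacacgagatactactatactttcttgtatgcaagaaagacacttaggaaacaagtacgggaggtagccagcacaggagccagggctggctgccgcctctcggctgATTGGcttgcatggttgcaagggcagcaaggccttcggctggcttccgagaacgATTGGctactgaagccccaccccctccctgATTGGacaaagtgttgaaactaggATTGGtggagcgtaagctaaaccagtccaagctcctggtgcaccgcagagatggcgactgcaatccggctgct
Mccc1: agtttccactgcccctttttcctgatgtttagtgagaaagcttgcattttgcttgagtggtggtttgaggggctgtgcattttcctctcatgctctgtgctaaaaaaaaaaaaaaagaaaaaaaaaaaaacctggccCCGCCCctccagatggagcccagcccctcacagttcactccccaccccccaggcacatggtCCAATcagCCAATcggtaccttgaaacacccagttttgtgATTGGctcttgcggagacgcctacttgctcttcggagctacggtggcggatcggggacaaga
Mccc2: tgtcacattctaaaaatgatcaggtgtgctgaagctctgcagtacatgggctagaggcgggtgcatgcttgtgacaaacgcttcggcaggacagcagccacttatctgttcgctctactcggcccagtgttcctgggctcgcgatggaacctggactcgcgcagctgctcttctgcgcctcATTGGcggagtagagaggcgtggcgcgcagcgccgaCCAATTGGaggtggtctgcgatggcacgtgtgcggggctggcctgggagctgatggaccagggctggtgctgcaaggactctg
Aldh6a1: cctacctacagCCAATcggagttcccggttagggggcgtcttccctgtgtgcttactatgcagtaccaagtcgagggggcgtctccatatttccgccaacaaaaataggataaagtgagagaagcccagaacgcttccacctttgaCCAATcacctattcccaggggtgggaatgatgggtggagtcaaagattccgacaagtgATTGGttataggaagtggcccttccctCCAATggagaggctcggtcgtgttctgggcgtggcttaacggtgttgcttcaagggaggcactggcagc

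The letters CCAAT occurred 4 times in the Ivd window, 3 times in Mccc1, 3 times in Mccc2 (where 2 matches overlap) and 4 times in Aldh6a1. They were found in 6 of the 9 enzymes with a promoter entry, which adds Bckdhb and Pcca, and in 37.4% of 32851 promoters of the same length. Genes near equal levels and genes among those with the lowest log2 differences both held the letters, and Bcat2, Bckdha and Pccb did not. GGGCGG was in 3 of 9 (Bckdhb, Mccc1 and Pcca), against 35.7% of promoters. GCGCATGC (NRF1) was in Pccb, against 2.71%, and AAGATGGC (YY1) in Bckdha, against 2.75%. CCGGAAG (ETS, 8.86% of promoters), AAGGTCA (a half-site of estrogen-related receptors, 4.72%) and TATAAA, the letters of the best known core promoter box (13.6%), were in none of the 9 windows. These are letter matches and not measured binding.

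Ivd was 81.9, 96.5, 67.9, 69.8 and 60.1 FPKM in Flox 1 to 5 and 34.7, 66.9, 47.9, 75.9 and 38.8 FPKM in Ad-GHRKO 1 to 5. Ad-GHRKO 1, 3 and 5 were below every Flox library and Ad-GHRKO 2 and 4 were within the Flox range. The means were 75.2 ± 14.2 and 52.8 ± 17.9 FPKM, with a log2 difference of -0.55 (SE 0.23, 95% interval -1.05 to -0.05, limma adjusted p = 0.261). No gene on either strand overlaps it.

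Mccc1 was 10.9, 17.4, 9.97, 13.9 and 12.6 FPKM in Flox 1 to 5 and 4.57, 9.27, 6.10, 10.3 and 6.75 FPKM in Ad-GHRKO 1 to 5. Every Ad-GHRKO library but the fourth was below the lowest Flox library. The means were 12.96 ± 2.93 and 7.40 ± 2.36 FPKM, resting on 916 to 3409 reads per library, with a log2 difference of -0.75 (SE 0.21, 95% interval -1.21 to -0.29, limma adjusted p = 0.0968). Only 2.2% of tested genes had a lower log2 difference. The antisense gene Mccc1os shares 198 exon bases with it, at 0.139 ± 0.0261 FPKM in Flox and 0.0588 ± 0.0519 in Ad-GHRKO, and Gm15952 and B230207O21Rik share 94 and 321.

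Mccc2 was 45.9, 60.8, 40.7, 47.5 and 36.0 FPKM in Flox 1 to 5 and 19.8, 32.3, 24.4, 39.9 and 20.4 FPKM in Ad-GHRKO 1 to 5. The same pattern held, with Ad-GHRKO 4 alone inside the Flox range. The means were 46.2 ± 9.33 and 27.4 ± 8.58 FPKM (837 to 3038 reads per library), with a log2 difference of -0.76 (SE 0.21, 95% interval -1.23 to -0.3, limma adjusted p = 0.0948). Both carboxylase genes lay close to the threshold, and 4 alternatives called them lower. By limma the adjusted p was 0.0493 for Mccc1 and 0.0482 for Mccc2 with median ratio scaling, 0.0446 and 0.0428 with quantile normalization, 0.0262 and 0.0169 with a skeletal muscle score as covariate, and 0.0494 and 0.0483 with voom. Without the 3 muscle-rich libraries the differences were -0.73 (adjusted p = 0.0818) and -0.83 (adjusted p = 0.0732).

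The 2 carboxylase genes had near-equal log2 differences. The ratio of Mccc1 to Mccc2 ranged from 0.237 to 0.350 in Flox and from 0.230 to 0.330 in Ad-GHRKO, with a log2 difference of 0.01 (exact permutation p = 0.96), whose sign changed with the pseudocount and with the library left out. The FPKM ratio does not give the relative number of transcripts, because the value of Mccc1 is divided by the 10952 exon bases of 8 annotated transcripts, 4.46 times the 2455 bases of its principal transcript. Were all reads from the principal transcripts, the ratio of the Flox means would be 0.948 in place of 0.281. Auh, the hydratase that acts next on leucine carbon, had a log2 difference of -0.24 and did not pass.

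**Figure D2:**
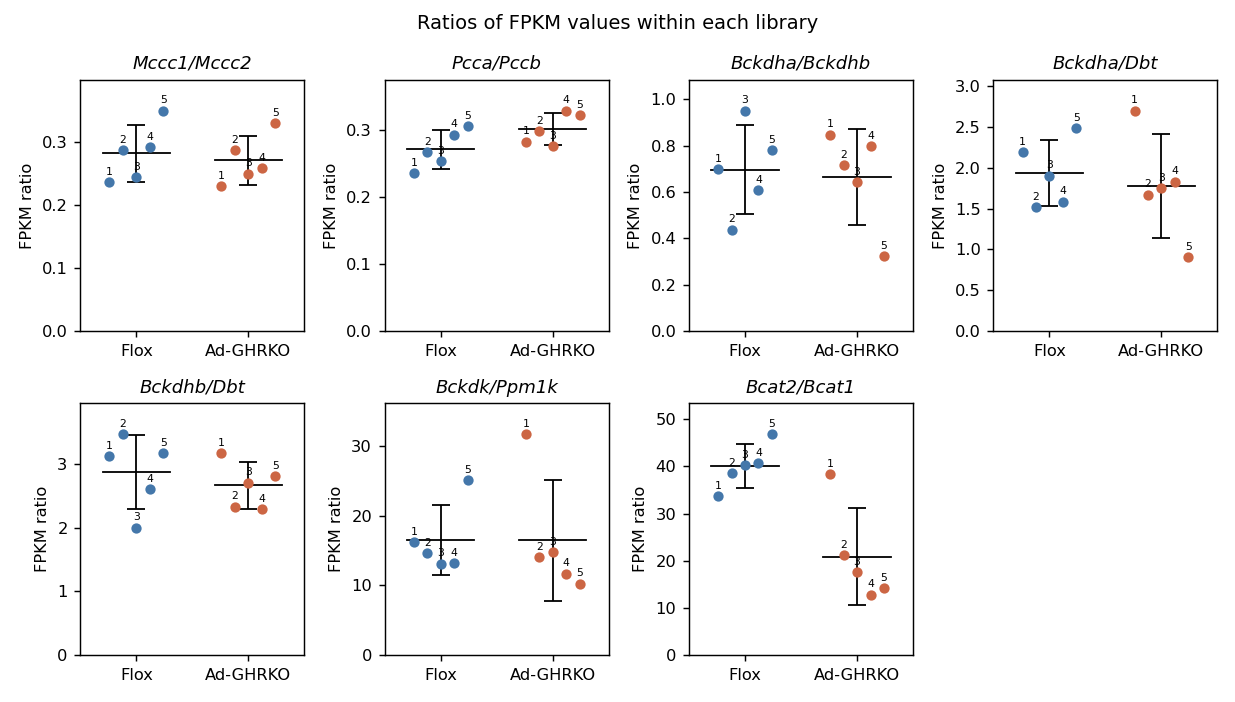
Ratio of the FPKM values of 2 genes within each library (y axis, from 0, no unit) for 7 pairs. Points are libraries with their replicate number, lines are means and bars are 1 SD; the Mccc1 to Mccc2 ratio spans 0.237 to 0.350 in Flox and 0.230 to 0.330 in Ad-GHRKO, while the Bcat2 to Bcat1 ratio is below the Flox range in 4 of 5 Ad-GHRKO libraries.

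The valine branch enzyme Aldh6a1 (ENSMUSG00000021238, GRCm38 chr12:84430717-84451004, minus strand), which turns methylmalonate semialdehyde into propionyl-CoA, was the member nearest to equal levels. It stood at 67.7, 84.4, 64.8, 52.1 and 47.9 FPKM in Flox 1 to 5 and at 33.5, 76.1, 60.1, 80.0 and 64.6 FPKM in Ad-GHRKO 1 to 5. Ad-GHRKO 1 was the lowest library and the other 4 lay within the Flox range. The means were 63.4 ± 14.4 and 62.9 ± 18.3 FPKM (log2 difference -0.04, SE 0.24, 95% interval -0.57 to 0.49, limma adjusted p = 0.954), and without Ad-GHRKO 1 the log2 difference was 0.16. Bbof1, on the opposite strand, shares 1078 exon bases at 0.578 ± 0.182 and 0.379 ± 0.0443 FPKM.

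Propionyl-CoA carboxylase, the biotin enzyme on which the valine and isoleucine branches meet, is built from the products of Pcca (ENSMUSG00000041650, GRCm38 chr14:122534324-122891100, plus strand) and Pccb (ENSMUSG00000032527, GRCm38 chr9:100982032-101034898, minus strand). Pcca was 20.1, 29.6, 17.3, 25.5 and 25.6 FPKM in Flox 1 to 5 and 13.9, 26.9, 18.4, 28.7 and 18.7 FPKM in Ad-GHRKO 1 to 5. Pccb was 85.0, 110.8, 67.9, 86.8 and 83.6 FPKM in Flox and 48.9, 90.1, 66.6, 87.0 and 58.1 FPKM in Ad-GHRKO. The genotypes overlapped for both genes, with Ad-GHRKO 1 lowest and Flox 2 highest. The limma log2 difference was -0.16 for Pcca (SE 0.21, adjusted p = 0.764) and -0.32 for Pccb (SE 0.2, adjusted p = 0.463). The Pcca to Pccb ratio was 0.236 to 0.307 in Flox and 0.277 to 0.330 in Ad-GHRKO (log2 difference 0.16, exact permutation p = 0.0794, adjusted over 7 ratios 0.278). Among the 3 ratios of BCKDH subunits the log2 differences were -0.08, -0.19 and -0.1, with exact permutation p of 0.77, 0.571 and 0.563. Ggact, on the opposite strand, shares 241 exon bases with Pcca at 2.25 ± 0.456 and 1.52 ± 0.457 FPKM.

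By FPKM, a level per length, the order in Flox fat was Pccb (86.8), Bcat2 (78.1), Ivd (75.2), Aldh6a1 (63.4), Bckdhb (52.6), Mccc2 (46.2), Bckdha (35.2), Pcca (23.6), Dbt (18.4) and Mccc1 (12.96). Library ranges of neighbours in this order overlapped in every pair. In Ad-GHRKO fat Pccb (70.1 FPKM) still had the highest mean and Mccc1 (7.40 FPKM) the lowest, with Aldh6a1 (62.9 FPKM) above Ivd (52.8 FPKM) and Bcat2 (50.9 FPKM). Counted over the principal transcript alone, Bcat2 would lead in Flox (171.8 on the FPKM scale) and Dbt would be last (18.6), with Mccc1 at 57.8.

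In some libraries the enzymes were high or low together, and in others they were not. On the mean z-score over the 10 enzymes (each gene's log2 values scaled over the 10 libraries), Flox 1 to 5 stood at 0.47, 1.19, -0.01, 0.38 and 0.18 and Ad-GHRKO 1 to 5 at -1.78, 0.39, -0.6, 0.63 and -0.86. Ad-GHRKO 1, 3 and 5 were thus below every Flox library, and Ad-GHRKO 2 and 4 were among the higher libraries of either genotype. Ad-GHRKO 1 was the lowest library for 8 of 10 enzymes and Ad-GHRKO 5 for the other 2 (Bcat2 and Bckdha), and Flox 2 was the highest for 8 and Ad-GHRKO 4 for 2 (Bckdha and Dbt). In Ad-GHRKO 4 none of the 10 enzymes was below its median over the 10 libraries, and in Ad-GHRKO 1 and 3 all 10 were. Other libraries were mixed: in Flox 5 the enzymes' ranks among the 10 libraries ran from 2 to 9, in Flox 3 from 2 to 8 and in Flox 4 from 3 to 9.

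The mean level of the adipocyte markers followed this pattern only in part. The mean log2(FPKM + 1) of the 18 adipocyte genes was 9.22, 9.43, 9.03, 9.13 and 9.02 in Flox 1 to 5 and 7.88, 9.06, 8.80, 8.96 and 8.52 in Ad-GHRKO 1 to 5, lowest in the 3 libraries with the lowest enzyme score and highest in Flox 2. With this score as a covariate the median log2 difference of the 10 enzymes was 0.02 (0.19 over all tested genes), 5 of 10 were negative, Mccc1 was -0.33 (limma adjusted p = 0.250) and Mccc2 -0.35 (adjusted p = 0.237). The score is itself lower in 4 of 5 Ad-GHRKO libraries than in any Flox library, so genotype and marker level are not separated by this fit. Among these libraries was Ad-GHRKO 4, whose enzyme score (0.63) was exceeded only by that of Flox 2. In bulk tissue, fewer adipocytes and less of these RNAs per adipocyte cannot be told apart. Of the 3 muscle-rich libraries, Ad-GHRKO 1 had the lowest enzyme score of all and Flox 3 and Flox 5 had the lowest of the Flox libraries, near 0; the part of muscle reads in the enzyme levels was not tested further than by the covariate and the fit without these libraries. Without these 3 libraries 0 of 10 enzymes were called, the median difference was -0.28, and Dbt (0.04) and Aldh6a1 (0.06) had a positive sign.

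**Figure D3:**
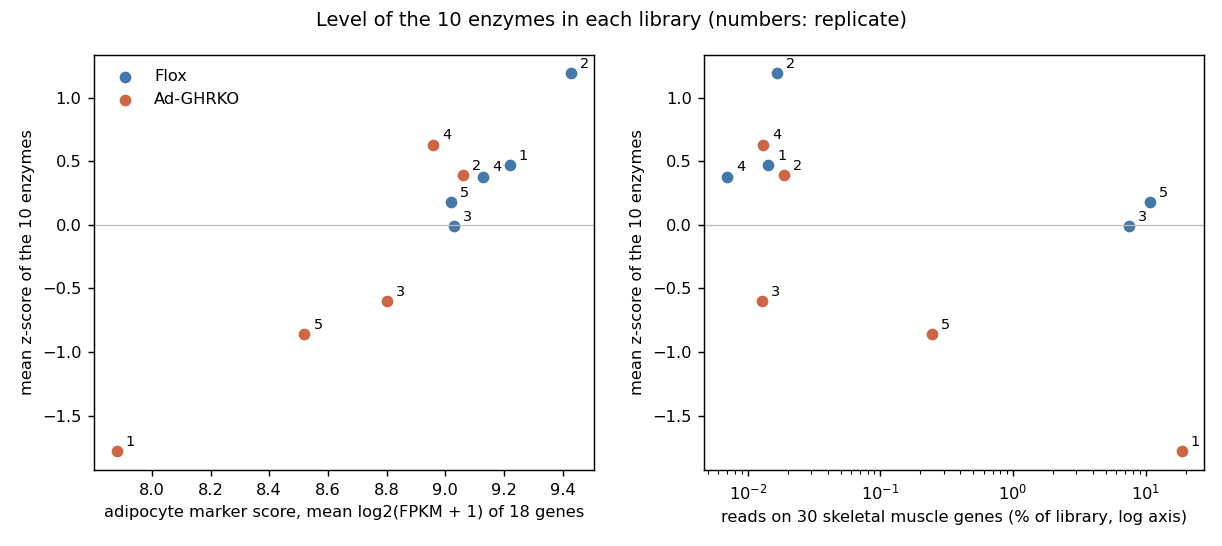
Mean z-score of the 10 enzymes in each library (y axis) against the mean log2(FPKM + 1) of 18 adipocyte markers (left) and against the percent of reads on 30 skeletal muscle genes on a log axis (right). Each point is 1 library with its replicate number; Ad-GHRKO 1, 5 and 3 are lowest on both axes of the left panel, at enzyme scores of -1.78, -0.86 and -0.6, and the 3 libraries above 7% muscle reads lie at -1.78, -0.01 and 0.18.

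Other genes of the pathway were taken from a list of 26: amino acid carriers, Bcat1, the E3 subunit and the control enzymes of BCKDH, the remaining enzymes of the 3 branches and of propionate, biotin handling and the transcription factor Klf15. All 26 were tested, 1 fell (Echs1; 1.42% of all tested genes did), 1 rose (Slc7a8; 0.774% did) and 24 did not pass. The median log2 difference was -0.27, with 19 negative and 7 positive. In 4 genes (Slc43a1, Echs1, Mcee and Mmaa) all Ad-GHRKO libraries were below all Flox libraries (3.35% of all tested genes), and in 1 (Slc7a8) all were above (1.62%). Of these, Mcee (log2 difference -0.38, limma adjusted p = 0.183) and Mmaa (-0.37, adjusted p = 0.160), which act after propionyl-CoA carboxylase, did not pass.

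Slc7a8, which encodes LAT2, an exchanger of large neutral amino acids at the cell surface, was 13.6, 12.1, 7.97, 7.51 and 6.69 FPKM in Flox 1 to 5. In Ad-GHRKO 1 to 5 it was 19.0, 36.3, 41.6, 34.4 and 29.0 FPKM, all above Flox, with Ad-GHRKO 1 nearest. It rose from 9.55 ± 3.04 to 32.0 ± 8.59 FPKM, a log2 difference of 1.65 (SE 0.24, limma adjusted p = 0.00516), and stayed past the threshold in each of 10 fits that left out 1 library (adjusted p 0.00212 to 0.0208). Ad-GHRKO 2 to 5, which the enzyme score set apart, lay between 29.0 and 41.6 FPKM here.

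Other carriers differed in direction and did not pass. Slc43a1, which encodes the facilitative carrier LAT3, was 19.2, 14.9, 16.5, 12.8 and 11 FPKM in Flox 1 to 5 and 9.67, 6.38, 10.6, 10.2 and 6.20 FPKM in Ad-GHRKO 1 to 5, with no overlap (log2 difference -0.73, SE 0.19, limma adjusted p = 0.0777). Slc7a5, which encodes LAT1, was low, at 1.76 ± 0.655 FPKM in Flox and 3.73 ± 1.27 in Ad-GHRKO (log2 difference 0.77, SE 0.21, adjusted p = 0.0908). Slc3a2, the heavy chain that pairs with LAT1 and LAT2, was 46.2 ± 8.50 and 62.9 ± 12.1 FPKM (0.43, adjusted p = 0.268). Slc25a44, the mitochondrial carrier of branched-chain amino acids, was 28.4 ± 4.36 and 20.5 ± 3.31 FPKM (-0.45, SE 0.15, adjusted p = 0.144).

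Echs1, the short-chain enoyl-CoA hydratase shared by the valine and isoleucine branches and fatty acid oxidation, was 37.0, 49.1, 31.2, 41.1 and 34.5 FPKM in Flox 1 to 5 and 14.9, 26.6, 17.8, 27.4 and 18.5 FPKM in Ad-GHRKO 1 to 5. It fell in a comparison with no overlap, with Ad-GHRKO 2 and 4 again the nearest to Flox (log2 difference -0.86, SE 0.19, limma adjusted p = 0.0416). The call ended, among other fits, without any 1 of the 5 Flox libraries, without Ad-GHRKO 3 or without Ad-GHRKO 5 (adjusted p 0.0596 to 0.119 in these 7 fits), and also with no filter (0.0978), TPM rescaling (0.0835) and the adipocyte score as covariate (0.0817, log2 difference -0.48). Echs1 shares 142 exon bases with Paox on the opposite strand, which was 7.49 ± 1.51 and 4.32 ± 0.933 FPKM (log2 difference -0.67, adjusted p = 0.0643). Btd, biotinidase, which frees the biotin that both carboxylases need, was 22.2 ± 2.79 and 15.4 ± 3.23 FPKM (-0.52, SE 0.16, adjusted p = 0.134), and Hlcs, which attaches it, had a log2 difference of 0.32 (adjusted p = 0.468). Klf15, a transcription factor known to act on Bcat2, was 55.2 ± 9.30 and 37.7 ± 12.8 FPKM (-0.59, adjusted p = 0.244).

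**Figure D4:**
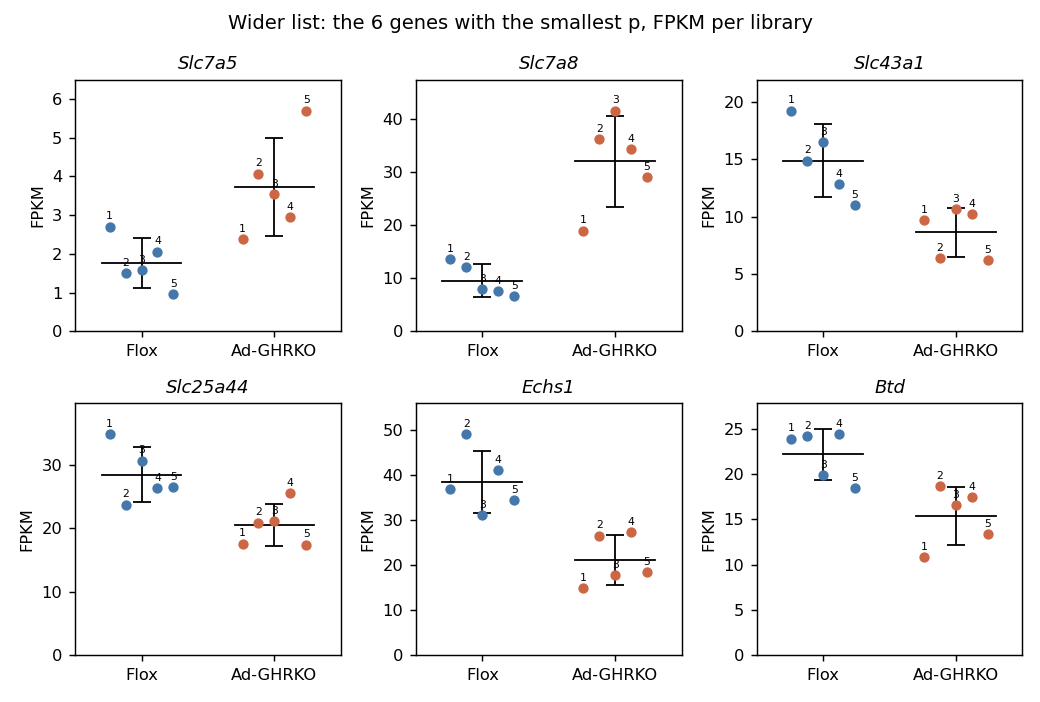
FPKM (y axis, from 0) of the 6 genes of the wider pathway list with the smallest p, in the 5 Flox and 5 Ad-GHRKO libraries. Points are libraries with their replicate number, lines are means and bars are 1 SD; Slc7a8 (9.55 against 32.0 FPKM) and Echs1 (38.6 against 21.1 FPKM) passed the test and the other 4 did not.

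A list of 17 citric acid cycle enzymes, the pathway that the carbon enters, was read beside the enzymes. None passed the limma test, 10 were lower and 0 higher at an unadjusted p of 0.05 (8.49% and 7.86% of all tested genes), 15 of 17 differences were negative and the median was -0.34, beside -0.33 for the 10 enzymes. In 4 of the 17 all Ad-GHRKO libraries were below all Flox libraries (3.35% of all tested genes). Sdhb, a subunit of succinate dehydrogenase, was 82.4 ± 9.33 and 57.1 ± 8.91 FPKM (-0.53, SE 0.14, adjusted p = 0.0921), and Dlst, a core subunit of the oxoglutarate dehydrogenase complex, 31.7 ± 2.64 and 24.1 ± 2.21 FPKM (-0.38, SE 0.11, adjusted p = 0.122).

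**Figure D5:**
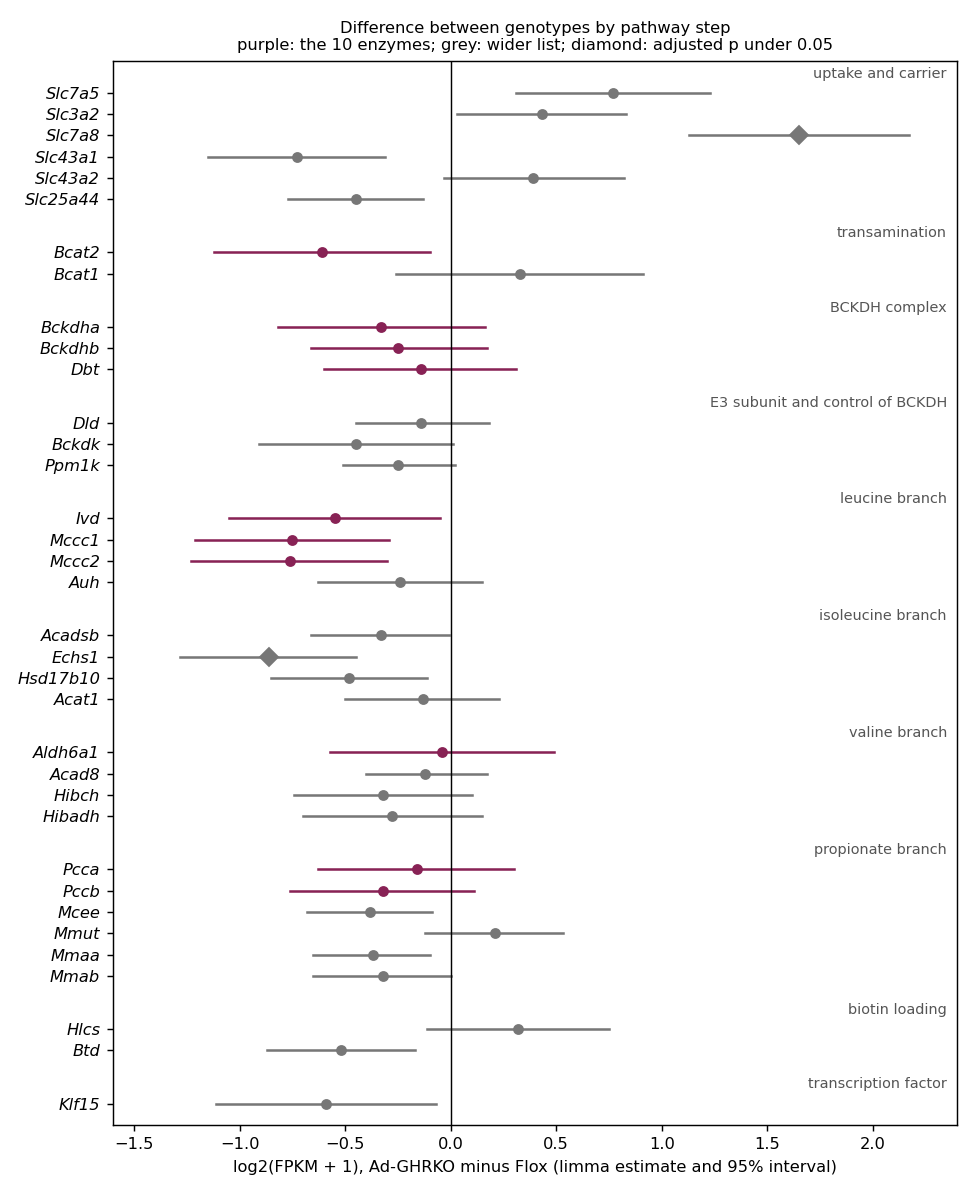
Limma log2 difference of FPKM + 1, Ad-GHRKO minus Flox (x axis), with its 95% interval for the 10 enzymes (purple) and 25 other pathway genes (grey), in the order of the pathway. Diamonds mark the 2 genes past an adjusted p of 0.05, Slc7a8 (1.65) and Echs1 (-0.86); the intervals of Bcat2, Ivd, Mccc1 and Mccc2 lie below 0 and those of the other 6 enzymes cross it, and the sign of those 6 changed in some alternative fits, with Aldh6a1 (-0.04) the 1 that turned positive under TPM rescaling.

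The genes most like the enzymes were those with the highest Pearson r, over the 10 libraries, with the mean z-score of the 10 enzymes, among 6952 genes with a mean of at least 5 FPKM (median r 0.246). They were Atpaf2 (r = 0.979), Hadh (0.976), Gga2 (0.973), Eral1 (0.97), Adhfe1 (0.966), Apip, Pigq, Mfng, Pla2g16 (0.958) and Fmo1 (0.957). For the first 5, Spearman's rho was 0.891, 0.988, 0.891, 0.952 and 0.915, r after removal of the group means was 0.97, 0.967, 0.962, 0.958 and 0.954, and r without the 2 libraries farthest from the median (Ad-GHRKO 1 and 5) was 0.936, 0.925, 0.912, 0.9 and 0.874. None of the 10 passed the test between genotypes, and these values are a description of genes ranked by likeness in the same libraries.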

How the data were processed

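Polyadenylated RNA of 10 libraries was fragmented, primed at random and copied with a mark on the second strand, per the labels' protocols. The authors deposited 1 table of FPKM values with 1 column per library, per the file headers. Which aligner and counter were used, and with what strand setting, is not given in the sources used here. Among builds, the submitters' processing notes name GRCm39, but 99.54% of 31253 gene identifiers had exactly the GRCm38 positions of GENCODE M21, so positions are given as GRCm38. FPKM values times GENCODE M21 exon length gave whole reads, within 0.01, for 99.24% to 99.31% of values per library, and depths of 14.6 to 19.3 M reads (M, mega). Mccc1 rested on 916 reads or more in every library. No library held values identical to another's. Since FPKM is relative to the library total, abundant muscle transcripts lower all other values of a library.

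After a filter that asked for 1 FPKM or more in 5 or more libraries (12785 genes kept), log2(FPKM + 1) was fitted without covariates in limma 3.58.1 (R 4.3.3), with the trend option, two-sided tests and Benjamini-Hochberg adjustment at 0.05 over all tested genes. This scale understates changes of low genes. Ghr and 7 ratios of log2 values were also tested by permuting the genotype labels exactly, over all 252 assignments (two-sided). The script was tested on simulated data. Python 3.11.15 with pandas 2.3.3 read the table and matplotlib 3.10.9 drew the plots. RefSeq promoters of GRCm38.p6 were matched by symbol for 9 of 10 enzymes, not Dbt.

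The enzymes and gene lists were chosen with earlier results of these data known. Named are the 10 enzymes, Ghr, of the wider list and the citric acid cycle list every gene past 0.05 and the 6 and 2 with the smallest p, and the 10 genes of at least 5 FPKM whose level was most like that of the enzymes (predicted genes left out). Bcat1, Bckdk, Ppm1k, Dld, Auh, Slc3a2, Hlcs, Klf15, Mcee, Mmaa and the overlapping genes were named after their values were seen. 1 gene of the wider list, counted in its totals, is not reported here. Alternatives were pseudocounts of 0.1 and 0.5 (none as well for ratios), quantile normalization, TPM rescaling or median ratio scaling, a filter of 5 FPKM or none, array weights, a replicate block, covariates for muscle and adipocyte scores, a robust prior, leaving out each library or the 3 muscle-rich ones, and, added after the data were seen, voom on the recovered reads.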

Additional observations from a re-analysis of the deposited data

Results flagged for a closer look

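The log2 ratio of Bckdha to Bckdhb (with 1 added to both FPKM values) was -1.57 in Ad-GHRKO 5, apart from the other 4 Ad-GHRKO libraries by Dixon's test for groups of 5 (critical value 0.71). In linear terms the FPKM ratio was 0.323 there and 0.644 to 0.847 in the other 4, and Bckdha was at its lowest of all 10 libraries (16.0 FPKM) while Bckdhb was at 49.7 FPKM. The flag rests on the log2 values and not on the linear ratios. Of 52 groups of 5 values examined this way, 1 stood out, and chance alone marks about 1 in 20.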

How the results depend on the processing

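The 280 genes called among all tested became 117 with no filter, 531 with median ratio scaling, 565 with quantile normalization, 85 with the replicate block, 1695 with array weights, 845 with the muscle covariate, 999 with the adipocyte covariate, 777 without the 3 muscle-rich libraries, 457 with voom and 116 to 1185 with 1 library left out. The count of called enzymes, 0, became 2 with median ratio scaling, quantile normalization and voom (Mccc1 and Mccc2) and 3 with the muscle covariate (Bcat2 too), and was 0 in each fit that left out 1 library. For the wider list, 2 calls became 1 with no filter and TPM rescaling, 4 with median ratio scaling, quantile normalization and voom, 0 with the replicate block, 8 with array weights, 6 with the muscle covariate, 5 with the adipocyte covariate and 1 to 6 with 1 library left out. The citric acid cycle list went from 0 to 3 with array weights, 1 with the muscle covariate and 0 to 4 with 1 library left out. Ghr passed in every fit.

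Signs changed in some fits for 6 enzymes and 3 ratios. With array weights Bckdha was 0.02, Dbt 0.1, Aldh6a1 0.19 and Pcca 0.09. With the adipocyte covariate Bckdhb was 0.13, Dbt 0.32, Aldh6a1 0.5, Pcca 0.25 and Pccb 0.09. Without the 3 muscle-rich libraries Dbt was 0.04, Aldh6a1 0.06 and the log2 Bckdha to Bckdhb ratio 0.04, and with TPM rescaling Aldh6a1 was 0.08. With 1 library left out Dbt ranged from -0.24 to 0.06, Aldh6a1 from -0.14 to 0.16, and the log2 ratios of Mccc1 to Mccc2 from -0.06 to 0.09, Bckdha to Bckdhb from -0.24 to 0.15 and Bckdha to Dbt from -0.34 to 0.02. The Mccc1 to Mccc2 difference was -0.05 with a pseudocount of 0.1 or none and -0.02 with 0.5. The cause of these changes was not tested. Bcat2, Ivd, Mccc1 and Mccc2 were negative in every fit run.

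Libraries of the same number did not vary together (r -0.489, 0.394, -0.034, 0.28 and -0.259 for numbers 1 to 5), so the numbers are not taken as pairs. With the replicate block the adjusted p was 0.0801 for Mccc1, 0.101 for Mccc2, 0.061 for Echs1 and 0.0525 for Slc7a8. Each enzyme rested on at least 445 reads per library, so counting error was small beside the spread between libraries.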
